A study of Homo sapiens with 4 samples.

Results

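The p53 binding sites at PHF14, IFNGR2 and DESI2 were examined in chromatin immunoprecipitation sequencing (ChIP-seq) peak lists of human H1299 cells. The 3 genes were chosen by their very high fold enrichment in the list of wild-type (WT) p53 together with a weaker rank in the list of the mutant K120R, so these values describe the genes and support nothing further. A peak was assigned to a gene when its summit, the point of highest signal, lay in the gene body or within 50 kb of it. By this rule 9 of 6849 peaks in all lists belonged to the 3 genes, and they had 3 of the 1356 p53 response elements (REs) listed with the study. Each RE below is called by the gene name given to it in that list, whether or not it lies in that gene.

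H1299 is a lung carcinoma line that lacks its own p53, and the cells carried a tetracycline (Tet) inducible construct for WT or K120R p53. The 4 conditions were untreated cells with the WT construct, WT cells given Tet for 24 h, untreated cells with the K120R construct, and K120R cells given Tet for 24 h. The labels gave the Tet dose as 1 µg/µl and the methods as 1 µg/ml, and this difference could not be settled. There was 1 library per condition, each called against its own input, so no value had a replicate and no test between conditions was made.

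p53 is a transcription factor that is stabilised by DNA damage and other stresses and binds DNA as a tetramer. Its RE is built from a pair of half-sites of 10 bp, each made of 3 purines, a core that starts with C and ends with G, and 3 pyrimidines. The lysine that K120R replaces with arginine lies in the DNA binding domain and can be acetylated, which arginine cannot.

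PHF14 encodes a PHD finger protein that binds histone H3. IFNGR2 encodes the signalling chain of the interferon gamma receptor, a class II cytokine receptor that works with JAK2. DESI2 encodes a member of the desumoylating isopeptidase family.

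The 3 listed REs are shown 5′ to 3′ as listed, since their bases were not used to choose the genes and can be compared between the sites. Capitals mark positions 3, 8, 13 and 18, counted from the 5′ end, which lie just outside the cores.
PHF14: tgGcatgCctggGcatgTag
IFNGR2: gaAcatgTctggGcatgTca
DESI2: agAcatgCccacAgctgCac
The PHF14 RE had G or C at 3 of these 4 positions, the DESI2 RE at 2 and the IFNGR2 RE at 1. Among the 1334 listed REs that overlapped a Tet-induced WT peak, 289 (21.7%) had G or C at 3 of them, 478 (35.8%) at 2 and 348 (26.1%) at 1. The 3 members thus fell in 3 different classes.

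The fit to the consensus p53 RE also differed. The listed IFNGR2 RE had 1 mismatch, at position 20. The PHF14 RE had 3, at positions 1, 19 and 20, all outside the cores. The DESI2 RE had 4, at positions 12, 14, 15 and 19, of which 2 were in the core of the right half-site. REs with 1, 3 and 4 mismatches made up 25.6%, 17.9% and 8.47% of the listed REs with a WT peak. The IFNGR2 and PHF14 REs had CATG in both cores, as did 412 of 1334 (30.9%), whereas the DESI2 RE had CATG in 1 core. CATG reads the same on both strands.

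All coordinates are on hg19 (GRCh37), and genes are those of GENCODE. The PHF14 RE, at chr7:11122550-11122569, lay in an intron of PHF14, 109.6 kb past the gene start and 19544 bp from the nearest exon of the gene. It was listed on the minus strand, and the next protein-coding gene, NDUFA4, was 142.8 kb away. The IFNGR2 RE, at chr21:34739679-34739698 and also on the minus strand, was intergenic, 36.0 kb before the start of IFNGR2. A nearer gene was IFNAR1, a chain of the type I interferon receptor, whose body ended 7.51 kb from the RE. The DESI2 RE, at chr1:244898876-244898895 on the plus strand, was intergenic as well and lay 26.5 kb past the end of DESI2. The nearest protein-coding gene model to it, ENSG00000284188, was 4.56 kb away.

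**Figure D1:**
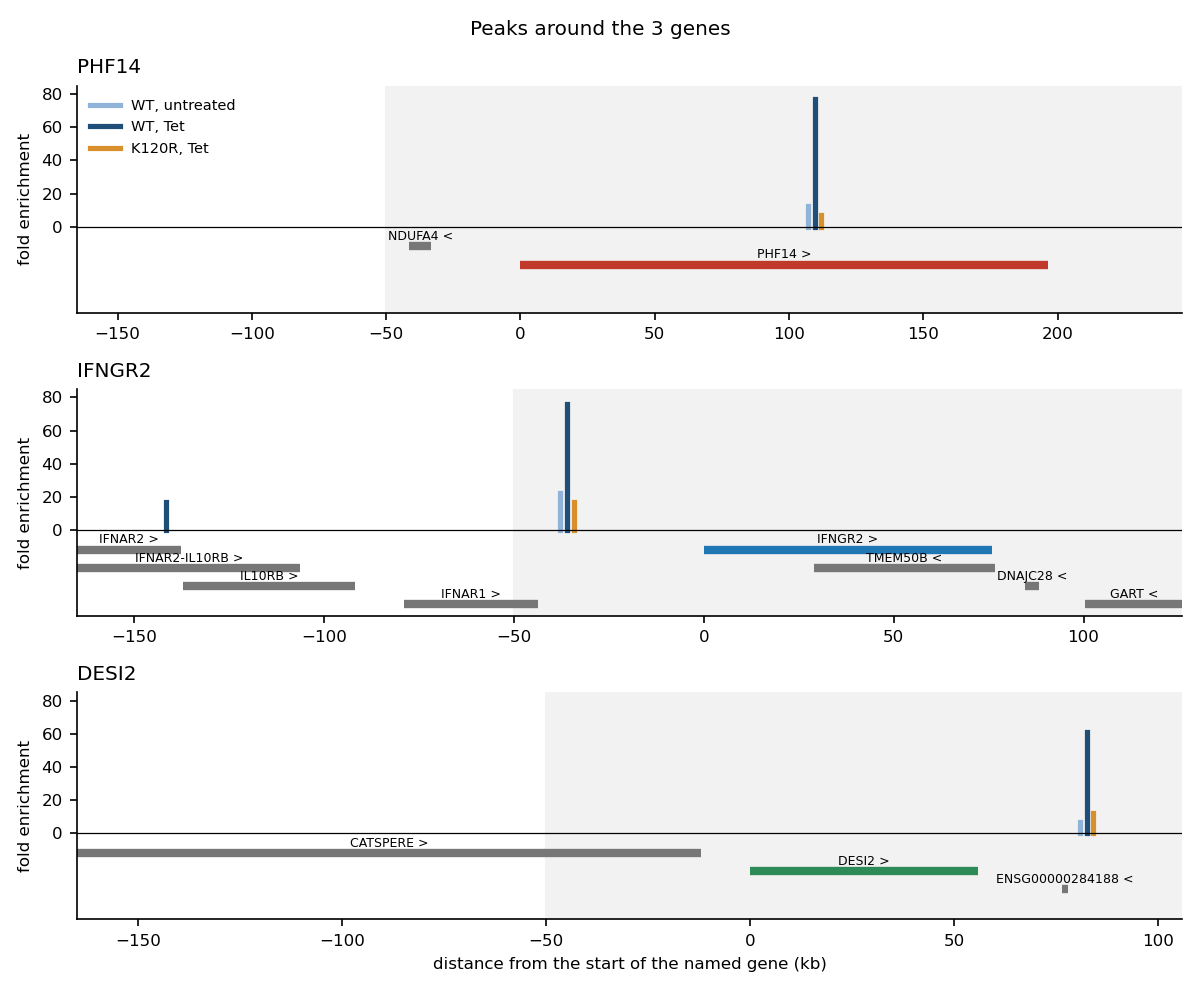
Fold enrichment of the peaks (vertical lines) by distance in kb from the start of each named gene, with protein-coding genes below and the 50 kb window in grey. Lines of the 3 libraries are set slightly apart so that they can be seen at the same site. Each gene had 1 site in its window, at 109.6 kb after the PHF14 start, 36.0 kb before the IFNGR2 start and 82.5 kb after the DESI2 start.

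Each gene had 1 assigned peak in untreated WT, in Tet-induced WT and in Tet-induced K120R cells, and none in untreated K120R cells. The assigned peaks were therefore 3 of 488, 3 of 4326, 3 of 2023 and 0 of 12 peaks. At each gene the 3 peaks lay at the same site and overlapped the listed RE. The summit farthest from its gene inside the 50 kb window was that at IFNGR2, at 36.0 kb. The nearest summit outside the window of any member in the Tet-induced WT list was 141.7 kb before IFNGR2, inside IFNAR2, with a fold enrichment of 16.7 and rank 646. No K120R peak lay there.

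Of all Tet-induced WT peaks, 1092 of 4326 (25.2%, exact Clopper-Pearson 95% interval 24.0 to 26.6%) overlapped a Tet-induced K120R peak by at least 1 bp, and all 3 members did. Of the 1334 listed REs with a Tet-induced WT peak, 541 (40.6%) had a K120R peak. The members were selected on these lists, so nothing was read from their count. A peak of untreated WT cells overlapped 401 (9.27%) of the Tet-induced WT peaks, among them the 3 members, and a peak of untreated K120R cells overlapped 6 (0.139%).

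Depth was similar between libraries, with 33059650, 33531162, 34151544 and 34857204 ChIP tags in untreated WT, Tet-induced WT, untreated K120R and Tet-induced K120R cells. The fragment length used by the peak caller was not: it was 170 bp in Tet-induced WT cells, 68 bp in Tet-induced K120R cells and 64 bp in both untreated libraries. A longer length lets more fragments cover a summit, so counts and fold enrichments of different libraries are set side by side only, and ranks were taken within each list. Fold enrichment is the pileup of ChIP fragments at the summit plus 1, divided by the local background plus 1.

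At PHF14 the fold enrichment was 12.7 in untreated WT, 77 in Tet-induced WT and 7.22 in Tet-induced K120R cells. These came from 32 fragments (exact Poisson 95% interval 21.9 to 45.2), 241 (212 to 273) and 13 (6.92 to 22.2). The site ranked 88 of 488, 2 of 4326 and 842 of 2023. It was thus near the top of the induced WT list and in the middle of the K120R list, where it shared its value with 25 peaks, itself included. By pileup 78.2% of K120R peaks were at least as strong, against 42.8% by fold enrichment, and its -log10 q there was 6.88, so the peak was lost at a minimum of 10. It was also lost when the summit had to lie within 100 bp of the RE centre. Intervals of fragments and their ratios cover counting error only, and those of fold enrichments hold the local background fixed.

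At IFNGR2 the fold enrichment was 22.4 in untreated WT, 76.0 in Tet-induced WT and 16.5 in Tet-induced K120R cells. The fragments numbered 41 (29.4 to 55.6), 279 (247 to 314) and 52 (38.8 to 68.2). Its ranks were 25 of 488, 3 of 4326 and 77 of 2023. By fold enrichment IFNGR2 was the member nearest to the top in untreated WT and K120R cells and next to PHF14 in Tet-induced WT cells, with 5.12%, 0.0693% and 3.81% of peaks at a fold enrichment at least as large. By pileup the shares were 15.4%, 0.347% and 2.42%. By fold enrichment among K120R peaks at listed REs alone, the share was 11.1%.

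At DESI2 the fold enrichment was 6.52 in untreated WT, 61.3 in Tet-induced WT and 12.2 in Tet-induced K120R cells. The fragments numbered 16 (9.15 to 26.0), 243 (213 to 276) and 25 (16.2 to 36.9). Its ranks were 295 of 488, 21 of 4326 and 212 of 2023. In untreated WT cells the value was below the list median, at 0.895 times it, while in Tet-induced WT cells it was 8.02 times the median. By fold enrichment 10.6% of K120R peaks were at least as strong, against 19.1% by pileup and 25.3% among peaks at listed REs. In the Tet-induced WT list the share was 0.485%, and 1.58% among peaks at listed REs. The -log10 q of the untreated WT peak was 6.92, so that peak was lost at a minimum of 10.

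By fold enrichment the members stood in different orders in the lists. By fragments the order in Tet-induced WT cells was IFNGR2, DESI2, PHF14 (279, 243 and 241), the same as in Tet-induced K120R cells. In Tet-induced WT cells PHF14 and IFNGR2 had nearly equal fold enrichments, with overlapping intervals (67.6 to 87.3 and 67.4 to 85.5), and that of DESI2 (53.9 to 69.5) overlapped both. The fragments of PHF14 were 0.864 times those of IFNGR2 (0.724 to 1.03) and 0.992 times those of DESI2 (0.826 to 1.19). In Tet-induced K120R cells the order was IFNGR2, DESI2, PHF14. There PHF14 had 0.250 times the fragments of IFNGR2 (0.125 to 0.466) and 0.520 times those of DESI2 (0.244 to 1.06), and IFNGR2 had 2.08 times those of DESI2 (1.27 to 3.50). In untreated WT cells the order was IFNGR2, PHF14, DESI2, with PHF14 at 2.00 times the fragments of DESI2 (1.07 to 3.90) and 0.780 times those of IFNGR2 (0.476 to 1.27). IFNGR2 had 2.56 times those of DESI2 (1.41 to 4.89). Since the members were selected on their WT and K120R values, these ratios are a description, and whether they differed between the lists was not tested.

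**Figure D2:**
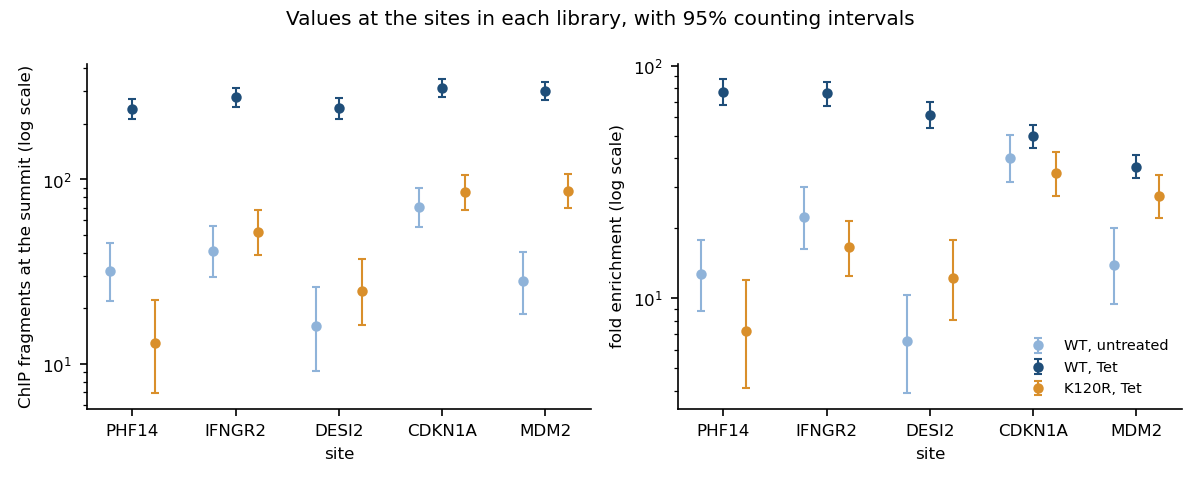
ChIP fragments at the summit (left) and fold enrichment (right), both on log scales, at each site in 3 libraries, with exact Poisson 95% intervals of the fragments. In Tet-induced WT cells the 3 sites lay between 241 and 279 fragments, and in Tet-induced K120R cells between 13 and 52.

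CDKN1A, the cell cycle inhibitor p21, and MDM2, the ubiquitin ligase that limits p53, gave a scale within each list. The strongest CDKN1A RE had a fold enrichment of 40.2 in untreated WT, 49.7 in Tet-induced WT and 34.4 in Tet-induced K120R cells, where it ranked 1. The MDM2 RE had 13.9, 36.8 and 27.4. In Tet-induced WT cells PHF14, IFNGR2 and DESI2 had 1.55, 1.53 and 1.23 times the fold enrichment of CDKN1A. In Tet-induced K120R cells the same multiples were 0.210, 0.481 and 0.354, and in untreated WT cells they were 0.315, 0.558 and 0.162. By fold enrichment all 3 members were therefore above CDKN1A in the induced WT list and below it in the other lists.

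In the induced WT list the members stood above CDKN1A and MDM2 by fold enrichment and below them by pileup, and their local backgrounds were lower. In Tet-induced WT cells CDKN1A had 312 fragments over a background of 5.10 and MDM2 had 303 over 7.0, more fragments than any member. The background was 2.05 at PHF14, 2.57 at IFNGR2 and 2.86 at DESI2, against a median of 3.00 over the list. Ordered by pileup, the members stood at ranks 27, 14 and 26, with CDKN1A at 4 and MDM2 at 6. Ordered by -log10 of the q-value they stood at ranks 11, 3 and 19, with CDKN1A at 7 and MDM2 at 18, so that IFNGR2 alone of the 3 was above CDKN1A.

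**Figure D3:**
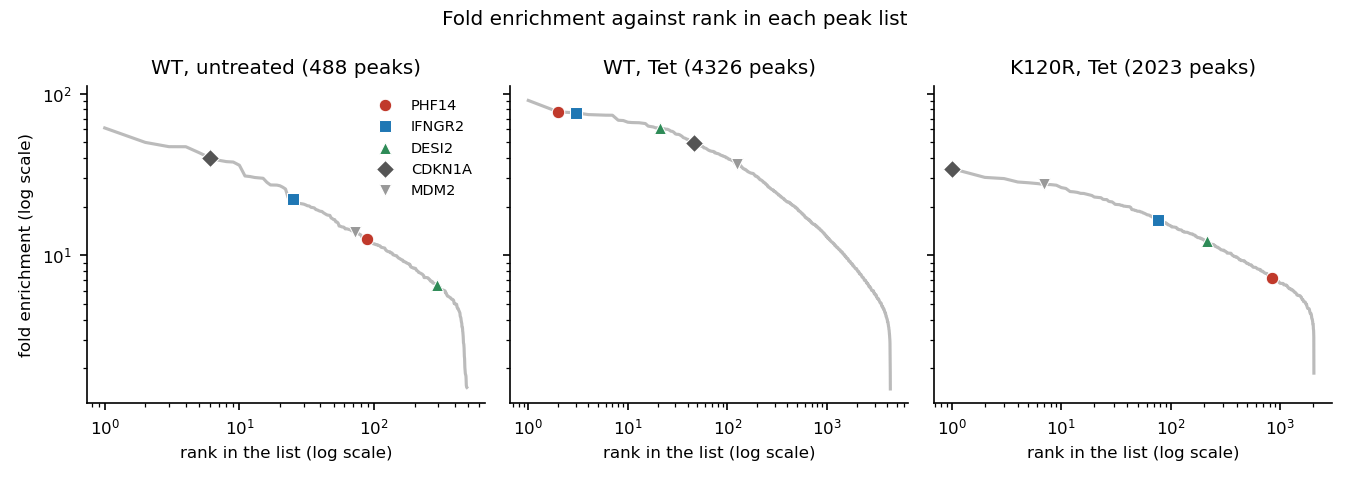
Fold enrichment of every peak against its rank in the list, both on log scales, with the 3 members, CDKN1A and MDM2 marked. PHF14 is at rank 2 of 4326 in the Tet-induced WT list and 842 of 2023 in the Tet-induced K120R list, and CDKN1A at ranks 46 and 1. The lists differ in length, so these ranks are not a change between conditions.

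The peaks with the largest fold enrichment in Tet-induced WT cells give the surroundings of the members. The first 10 carried the REs of LOC100131347 (90.7), PHF14, IFNGR2, STARD4-AS1 and FAM3C (both 74.1), IRF2BP2 (73.5), PLAC8 (73.4), C3orf79 (68.4), NMUR2 (68.1) and AKAP6 (66.5). The leading 25 peaks, a number set after the values were seen so as to include DESI2, all overlapped a listed RE and a peak of untreated WT cells. A peak of untreated WT cells overlapped 9.27% of all Tet-induced WT peaks. Per the paper, the listed REs were drawn from enriched WT peaks of this study at published p53 sites. Nothing was therefore read from the overlap with them, and its share over all WT peaks is not given here. Of the leading 25 peaks 24 had a K120R peak, with fold enrichments from 7.22 to 30.3 and a median of 16.3. PHF14 was the lowest of these 24, below MYO3B (7.98) and C3orf79 (8.12), and the one without a K120R peak was CCKAR. IFNGR2 stood at place 12 and DESI2 at place 16. These places are a description only, as the members were selected for a high WT value with a weaker K120R rank. In untreated WT cells DESI2 was the lowest of the 25, next to CCKAR (6.76).

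By likeness of log2 fold enrichment over the untreated WT, Tet-induced WT and Tet-induced K120R lists, 208 listed REs could be compared. Nearest to PHF14 were MYO3B (13, 66.2 and 7.98 in the 3 lists), C3orf79 and SGK223, at Euclidean distances of 0.26, 0.54 and 0.57. Nearest to IFNGR2 were IRF2BP2 (28.3, 73.5 and 17.8), PLAC8 and FGF2, at distances of 0.36, 0.44 and 0.51. Nearest to DESI2 were NSMCE2 (6.05, 50.2 and 10.9), LINC00476 and SPG11, at distances of 0.35, 0.43 and 0.48.

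The reference sequence under the peaks held more than the listed REs. At IFNGR2 the listed RE and the next 10 bp made 3 half-sites in a row without a gap. The window chr21:34739669-34739727 is shown on the plus strand, with the half-sites that match the consensus at every position in capitals.
IFNGR2: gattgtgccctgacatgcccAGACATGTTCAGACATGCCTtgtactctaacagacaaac
The 2 half-sites in capitals, at chr21:34739689-34739708, formed an RE with 0 mismatches that was shifted by 10 bp from the listed one and also had G or C at 1 of the 4 positions. Its centre lay 2.5 bp from the Tet-induced WT summit and 1.5 bp from the Tet-induced K120R summit. The remaining half-site of the row, on its left, had 1 mismatch. An RE with 0 mismatches and no spacer lay within 100 bp of the summit in 248 of 4326 Tet-induced WT peaks (5.73%) and in 10 of the leading 25 peaks (40%).

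At DESI2 the best match without a spacer within 100 bp of the Tet-induced WT summit had 1 mismatch, against 4 in the listed RE, and G or C at 2 of the 4 positions. Its centre lay 10.5 bp from that summit. When spacers of 0 to 13 bp were allowed, the DESI2 peak had a match with 0 mismatches, as did 338 of 4326 Tet-induced WT peaks (7.81%) and 12 of the leading 25 (48%). At least 3 half-sites without a mismatch were found in 72 peaks (1.66%), DESI2 among them, and in 4 of the leading 25 (16%).

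At PHF14 no sequence within 100 bp of the Tet-induced WT summit had fewer mismatches than the listed RE, with or without a spacer. The summit was 18.5 bp from the centre of the RE in Tet-induced WT cells and 3.50 bp in untreated WT cells. In Tet-induced K120R cells the summit of the 245 bp peak lay 157.5 bp to the left of the RE centre, and the best 20 bp match within 100 bp of that summit had 5 mismatches, 3 of them in the cores. The WT and K120R summits were 139 bp apart, and 4.58% of the 1092 shared peaks had a gap at least as large. The gap was 1 bp at IFNGR2 and 68 bp at DESI2, against a median of 32 bp over the shared peaks. With 13 fragments at the K120R summit of PHF14, the position of that summit rests on few fragments. Summits were placed with a fragment length of 170 bp in Tet-induced WT and 68 bp in Tet-induced K120R cells. The latter is below the tag length of 75 bp. How far these lengths set the summit positions and gaps was not tested.

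**Figure D4:**
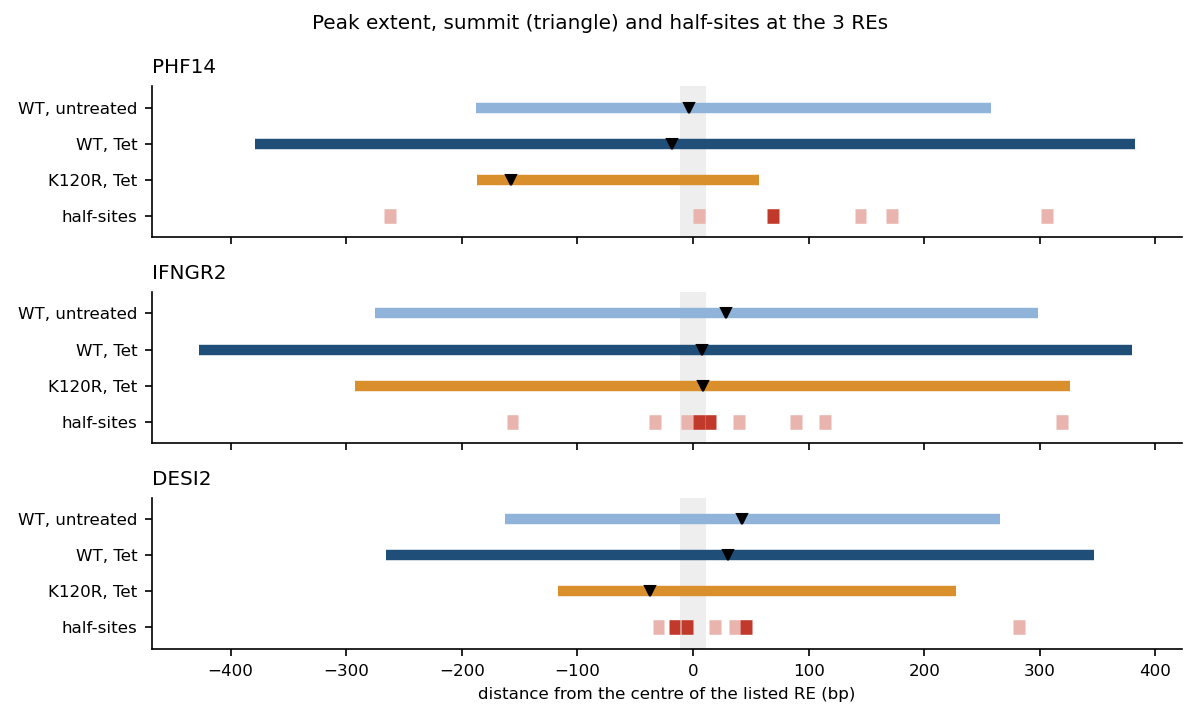
Extent of each peak (bars), its summit (triangles) and half-sites in the reference (bottom row of each panel) by distance in bp from the centre of the listed RE, whose 20 bp are shaded. Dark red half-sites match the consensus at every position and pale ones have 1 mismatch. The K120R summit lies within 1 bp of the WT summit at IFNGR2, and 68 and 139 bp from it at DESI2 and PHF14. Summits in the Tet-induced WT and K120R lists were placed with different fragment lengths.

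In Tet-induced WT cells the peaks spanned 762 bp at PHF14, 808 bp at IFNGR2 and 613 bp at DESI2, against a median of 303 bp, and 1.39%, 1.02% and 4.46% of peaks were at least as long. In Tet-induced K120R cells they spanned 245, 620 and 345 bp, against a median of 204 bp, and 42.6%, 1.63% and 26.5% were at least as long. CATG was found 2 times within 100 bp of the Tet-induced WT summit at PHF14 and 3 times at IFNGR2 and DESI2. Of all Tet-induced WT peaks, 69.2% had it at least 2 times and 35.1% at least 3 times.

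Some listed REs repeated the bases of a member almost exactly while their signal differed, as shown here for some of the nearest. In the sequences below, capitals mark the bases that differ from the member, read on the member's strand.
CCDC30: tggcatgcctgggcatgtag
AKAP10: tAgcatgcctgggcatgtag
KRTAP10-7: Cggcatgcctgggcatgtag
HS3ST4: agacatgTccacagctgcac
The CCDC30 RE, at chr1:42998969-42998988, had the same 20 bases as the PHF14 RE. Its fold enrichment in Tet-induced WT cells was 20.4 (rank 454), against 77 at PHF14, and it had no peak in untreated WT or Tet-induced K120R cells. The AKAP10 RE (G2A, with positions counted from the 5′ end of the member RE) had 11.5, and the KRTAP10-7 RE (T1C) had 13.5, both without a K120R peak. They are shown as examples, since 5 listed REs differed from that of PHF14 by 1 base. These had fold enrichments of 11.5 to 17.2 in Tet-induced WT cells, and none had a peak in untreated WT or Tet-induced K120R cells. PHF14 was selected for its WT value, so that it stood above them is a description only. Among the 1334 listed REs with a Tet-induced WT peak, 23.8% had an untreated WT peak and 40.6% a K120R peak. For those with G or C at 3 of the 4 positions the K120R share was 18.3%. With 5 REs, nothing was read from their lack of peaks. The HS3ST4 RE, which differed from the DESI2 RE by C8T, had 32.2 in Tet-induced WT and 7.85 in untreated WT cells and no K120R peak. The RE nearest to that of IFNGR2 was FAM19A3 (G12T), with 16.2 in Tet-induced WT and 11.3 in Tet-induced K120R cells.

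The likeness to other REs extended beyond the 20 bp. Windows of 320 bp around every listed RE were aligned with each other, and REs whose windows reached an alignment score of 100, against medians of 10.5 to 12 for the members over all listed REs, were called related. PHF14 had 16 related REs, IFNGR2 had 18 and DESI2 had 57, with median identities over the aligned bases of 85.8%, 80.3% and 86.4%. No RE was related to more than 1 member. Of all 1356 listed REs, 447 (33.0%) had a related RE and 324 (23.9%) had at least 10, as did 13 of the 25 REs in the leading WT peaks. Many p53 sites are known to lie in copies of endogenous retroviruses and other repeats, but no repeat annotation was used here. The authors kept uniquely aligned reads, and how far this lowers the signal in such stretches was not tested.

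Each member had a larger fold enrichment in Tet-induced WT cells than any of its related REs. Since the members were chosen by that value, this is a description only. The related REs of PHF14 ranged from 10.6 to 39.3 with a median of 18.8, those of IFNGR2 from 7.52 to 74.1 with a median of 35.4, and those of DESI2 from 4.66 to 51.2 with a median of 18.8. The nearest in level to IFNGR2 was the FAM3C RE at chr7:121151349-121151368, with 74.1 in Tet-induced WT and 23.9 in Tet-induced K120R cells.

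A K120R peak was found at 5 of 16 related REs (31.2%) for PHF14, 13 of 18 (72.2%) for IFNGR2 and 11 of 57 (19.3%) for DESI2, against 40.6% of the 1334 listed REs with a WT peak. A difference between the groups was not tested. Among these K120R peaks, 2 of 5 were stronger than that of PHF14, namely TRIM42 (12.6) and TRANK1 (12.2). Of the 13 related to IFNGR2, 3 were stronger, and of the 11 related to DESI2, 1 was, NEGR1-IT1 (14.4). Of the same 1334 listed REs, a K120R peak was found at 77.6% of those with G or C at 0 of the 4 positions, 55.7% with 1, 34.3% with 2 and 18.3% (53 of 289) with 3. In the PHF14 group the K120R peaks were at 3 of 3 REs with G or C at 1 of the 4 positions, 2 of 10 with 2 and 0 of 3 with 3. PHF14 itself, with 3, had a K120R peak, which was lost at the stricter settings given above. In the IFNGR2 group they were at 1 of 1 with 0, 11 of 15 with 1 and 1 of 2 with 2. In the DESI2 group they were at 4 of 10 with 1, 5 of 37 with 2 and 2 of 10 with 3. There 10 REs had the bases of the best match without a spacer near the DESI2 summit, read on the opposite strand. No other listed RE had the bases of the listed DESI2 RE. The classes of this group therefore refer in part to another element than the listed DESI2 RE. What part the bases had in the counts was not tested.

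**Figure D5:**
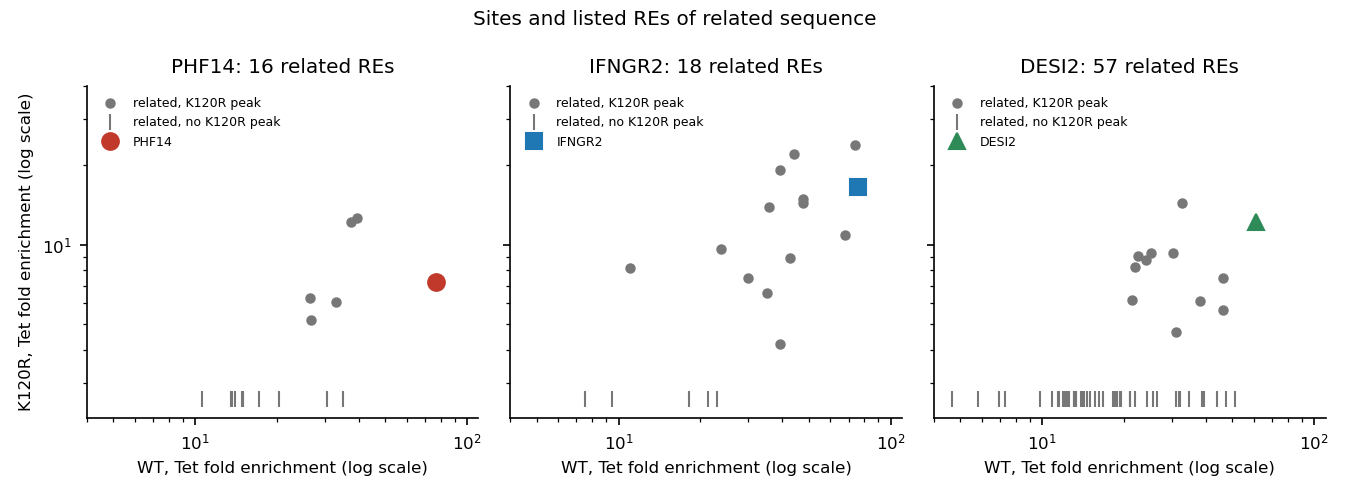
Fold enrichment in Tet-induced K120R against Tet-induced WT cells, both on log scales, for each member (coloured) and its related listed REs (grey). Ticks at the bottom are related REs without a K120R peak, which have no K120R value. Each member lies to the right of its 16, 18 or 57 related REs.

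In untreated WT cells 3 of 16, 11 of 18 and 21 of 57 related REs had a peak, against 318 of the 1334 listed REs with a Tet-induced WT peak (23.8%). PHF14 and IFNGR2 were above all of theirs, whose highest values were 7.68 and 17.7. DESI2 was below 17 of its 21, with a median of 7.85 and a highest value of 15.2 at RANBP3L, while the rest of its group had no peak there.

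The interferon receptor genes near the IFNGR2 site were looked at as part of a list of 19 class II cytokine receptor and interferon signalling genes. Of these, 10 (52.6%) had a Tet-induced WT peak within 50 kb, against 5430 of 20163 protein-coding genes (26.9%). Since the IFNGR2 site was selected for its peaks, the share is also given without IFNGR2 and IFNAR1, which share it: 8 of 17 (47.1%). The 10 genes held 7 different peaks, since neighbours shared them: IFNGR2 and IFNAR1 shared the site described above, IFNAR2 and IL10RB shared another, and IL22RA1 and IFNLR1 a further one. The others were IFNGR1 (5.66), the kinase gene JAK2 (12.6), and the feedback inhibitors SOCS1 (10.3) and SOCS3 (4.13). The SOCS1 summit was 49.985 kb away, just inside the window. In the gene body alone 3 of the 19 had a WT peak (IFNAR2, IL22RA1 and JAK2), against 1985 of all genes (9.84%). In Tet-induced K120R cells 3 of 19 (15.8%) had a peak, against 2727 of all genes (13.5%): IFNGR2, IFNAR1 and IRF1 (6.33), a transcription factor induced by interferon. Without the selected site this was 1 of 17 (5.88%). In untreated WT cells only IFNGR2 and IFNAR1 had a peak, so without that site there were 0 of 17, against 775 of all genes (3.84%). Apart from the IFNGR2 site, no peak near these genes was in more than 1 list. Of all Tet-induced WT peaks, 25.2% overlapped a Tet-induced K120R peak and 9.27% a peak of untreated WT cells. With so few peaks near these genes, nothing was read from the lack of overlap.

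A list of 15 genes for PHD finger proteins and partners of PHF14 held 14 beside PHF14, which was selected. Of the 14, 4 (28.6%) had a Tet-induced WT peak, against 26.9% of all genes, and 4 (28.6%) a Tet-induced K120R peak, against 13.5%. In untreated WT cells there was 1 (7.14%), PHF23 (11.2), against 3.84%, and PHF23 had no peak in the other lists. Beside the selected PHF14, the genes PHF10, PHF13 and PHF20 had peaks in both Tet-induced lists. Over all Tet-induced WT peaks, 25.2% overlapped a Tet-induced K120R peak. The share of all genes with a peak in both lists is not given here, so nothing was read from these genes. PHF13 had 7.59 (rank 2196 of 4326) in Tet-induced WT and 16.5 (rank 76 of 2023) in Tet-induced K120R cells. PHF10 had 14.3 and 11.3, and PHF20 had 19.8 and 11.4, each at its stronger site. Each also had a weaker WT peak, at 5.26 and 4.99, without a K120R peak there. PHF3 had a WT peak alone (3.88), and TCF20, a partner of PHF14, had a K120R peak alone (7.22).

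A list of 8 desumoylating isopeptidase and SENP protease genes held 7 beside DESI2, which was selected. Of the 7, 2 (28.6%) had a Tet-induced WT peak, against 26.9% of all genes: SENP5 (4.82) and SENP6 (4.41 and 5.43). In Tet-induced K120R cells there was 1 (14.3%), DESI1 (5.59), against 13.5%, and in untreated WT cells 0, against 3.84%. Apart from the DESI2 site, at 61.3, the WT peaks of this list were thus at 5.43 or below.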

How the data were processed

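ChIP-seq peak lists of 4 conditions of H1299 cells were analysed, with 1 library and 1 input each. The authors aligned reads with BWA to hg19, kept those that aligned uniquely and called peaks with MACS2 (version 2.1.1.20160309 per the file headers) at a q-value cutoff of 0.05, keeping 1 tag per position. The deposited pileup is a signal, the count of extended fragments at the summit after scaling the larger of ChIP and input down. The deposited fold enrichment is a ratio of pileup to local background. The deposited significance values are -log10 of a p-value or q-value. Position, summit, fold enrichment and q-value were the same in the 3 deposited files of each library.

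Pileup was divided by the scaling factor, which gave whole fragments (within 0.02) at 100% of peaks. Local background was computed from pileup and fold enrichment. Exact Poisson, binomial and conditional 95% intervals came from scipy 1.17.1, sequences from GRCh37 with pysam 0.24.0, genes from GENCODE 44 lifted to GRCh37, and alignments from Biopython (match 1, mismatch -1, gap opening -2, gap extension -0.5, ends free). Windows were compared on both strands, and REs closer together than a window were not compared. Interval, matching and alignment steps were tested on simulated data. From the list of REs only positions, sequences and names were used. Named genes were the members, CDKN1A, MDM2, the 10 strongest WT peaks, the 3 nearest REs by value and by sequence (at most 4 differences), and genes of the 3 lists. Others were named after their values were seen. Members and lists were chosen with earlier results of these data known. The alignment, the spacer search and the group of 25 peaks were added after the data were seen. Some stretches of sequence are not reported here.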

Additional observations from a re-analysis of the deposited data

How the results depend on the processing

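No value has a replicate, so intervals of fragments cover counting error only. Those of fold enrichments hold the local background fixed, and those of shares treat peaks as independent draws. Of 86 alternatives, 47 left the value within its interval or, for counts of peaks, genes or REs, within 1.5 times, and 39 did not. Some of the 47 could not move, such as stricter settings for untreated K120R cells, which had no assigned peak to lose. The tally is therefore no measure of stability. Position is the percent of peaks at least as strong. In the Tet-induced WT list, ordering by pileup gave 0.624% for PHF14 and 0.347% for IFNGR2, and ordering by -log10 q gave 0.254% for PHF14. Leaving out peaks that overlap one of untreated WT cells, with the member put back, gave 0.0255% for DESI2, but all 3 members came first by construction, since every stronger peak overlaps one of untreated WT cells, so it says nothing of stability. Keeping peaks at listed REs gave 0.226% for IFNGR2 and 1.58% for DESI2. In the Tet-induced K120R list, PHF14, IFNGR2 and DESI2 were at 78.2%, 2.42% and 19.1% by pileup, 50.3%, 2.52% and 12.9% by -log10 q, 53.2%, 6.17% and 16% among peaks shared with WT, and 65.1%, 11.1% and 25.3% among peaks at listed REs. In the untreated WT list ordering by pileup gave 23.2%, 15.4% and 56.8%. The order IFNGR2, DESI2, PHF14 in K120R cells was the same by pileup and by -log10 q. Keeping only some of the peaks leaves the fold enrichments of the members as they were, so the order could not change there. Since the members were selected on their K120R values, this order is a description only.

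With a -log10 q of at least 10, 15% of WT peaks overlapped a K120R peak (20.6% with at least 5) and 6.19% an untreated WT peak. PHF14 then had no K120R peak, as with a summit within 100 bp of the RE centre, and DESI2 no untreated WT peak. With the gene body alone or a 10 kb window, 1 peak, that of PHF14, was assigned in each list that had 3. The gene body alone left 3 of 19 interferon and 3 of 15 PHD finger genes (PHF14 included) with a WT peak, against 9.84% of all genes. The best match near the WT summit had 0 mismatches at IFNGR2 and 1 at DESI2, and with spacers allowed 0 at both. At an alignment score of 60, related REs numbered 26 for PHF14 and 40 for IFNGR2, and at 140 there were 11 for IFNGR2. The cause of these shifts was not tested.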
